A study of Homo sapiens with 6 samples.

Results

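The genes described here encode the respiratory chain and ATP synthase, the 5 protein complexes of oxidative phosphorylation. Their probe sets were chosen by symbol alone. A probe set, the group of short probes that an array carries for 1 transcript, was taken where its only gene symbol began with NDUFA, NDUFB, NDUFC, NDUFS, NDUFV, UQCR, COX4, COX5, COX6, COX7, COX8 or ATP5, or was SDHA, SDHB, SDHC, SDHD, CYC1 or CYCS. The rule used no measured value. It found 108 of the 22283 probe sets, and these stood for 75 of the 11963 genes measured. Complex I had 28 of these genes, complex II had 3, complex III had 7, complex IV had 13 and ATP synthase, complex V, had 16, with CYCS, cytochrome c, beside them. The other 7 met the prefixes without encoding a subunit: the complex I assembly factors NDUFAF1, NDUFAF3, NDUFAF4, NDUFAF5 and NDUFAF7, the antisense gene NDUFB2-AS1 and the pseudogene ATP5MC2P1.

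The 6 RNA samples were each hybridized to an Affymetrix array. The 3 SUM44 samples came from an invasive lobular breast carcinoma line at passages 74, 75 and 76, and the 3 LCCTam samples from its tamoxifen-resistant variant at passages 8, 9 and 10. Both lines were grown in SFIH, a Ham's F12 medium, to 70% confluence, and LCCTam also received 500 nM 4-hydroxytamoxifen, the active metabolite of tamoxifen. LCCTam is 1 variant line, so the line and the drug in its medium cannot be told apart. The series title names ERRγ, an orphan nuclear receptor encoded by ESRRG, as a mediator of the resistance. Values are log2 expression, differences are LCCTam minus SUM44 on that scale, and replicates 1 to 3 of each line are its passages in ascending order. A gene passed where limma's Benjamini-Hochberg adjusted p over all 11963 genes was under 0.05. The labels do not say that the passages were independent cultures, so p-values measure only the spread between these samples.

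Oxidative phosphorylation takes electrons from NADH at complex I and from succinate at complex II, passes them through ubiquinone to complex III, and by cytochrome c to complex IV, where oxygen is reduced to water. Complexes I, III and IV pump protons across the inner mitochondrial membrane, and ATP synthase uses their return to make ATP. The subunits come from nuclear genes together with a small set in mitochondrial DNA, and estrogen-related receptors with the coactivator PGC-1, NRF1 and GABP are known activators of the nuclear genes.

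Markers of the labelled cell type were present: KRT8, KRT18 and KRT19, keratins of luminal epithelium, lay between 11.74 and 13.50 on all arrays, and GATA3, a luminal transcription factor, between 12.46 and 12.98. Of 10 luminal markers 2 fell, the estrogen receptor gene ESR1 by -1.65 and its target TFF1 by -1.46. PGR, the progesterone receptor gene, lay between 3.80 and 3.88 on all arrays, among the dim values, although the labels call the line PR-positive. Of 8 fibroblast markers 1 passed, COL3A1, with a difference of -4.42, and of 5 leukocyte markers 0 passed by limma, with 0.0% at an unadjusted p under 0.05. LCCTam replicate 3 stood apart. Its actin control probe sets differed by 1.92 between the 3' and 5' ends against 0.90 to 1.15 on the others, its GAPDH controls by 0.61 against 0.09 to 0.31, and its 75th percentile was 7.50 against 7.68 to 7.78. Results are therefore also given without it.

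Most of the 75 genes had similar levels in both lines, and those that passed lay in complexes I, II and V, with differences under 2-fold. Of the 75, 1 rose, NDUFA13, and 4 fell, SDHA, NDUFS1, NDUFS6 and ATP5ME. That is 6.67% of the members, beside 7.92% of all genes, of which 2.09% rose and 5.83% fell, so the share of members was near the background. The median difference was 0.04 for the members and 0.02 for all genes, and the median absolute differences were 0.157 and 0.154. Of the members 51 differed by less than 0.25 in size. At an unadjusted p under 0.05 there were 21 members, 28.0%, against 23.1% of all genes. Without any overlap between the lines were 28 members, 12 higher and 16 lower in LCCTam, where all genes gave 13.2% higher and 16.6% lower. The members were mostly bright, and among genes with a mean of at least 9 on the log2 scale the share that passed was 6.78% of 59 members and 10.9% of all 1806 genes, with median absolute differences of 0.153 and 0.187.

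**Figure D1:**
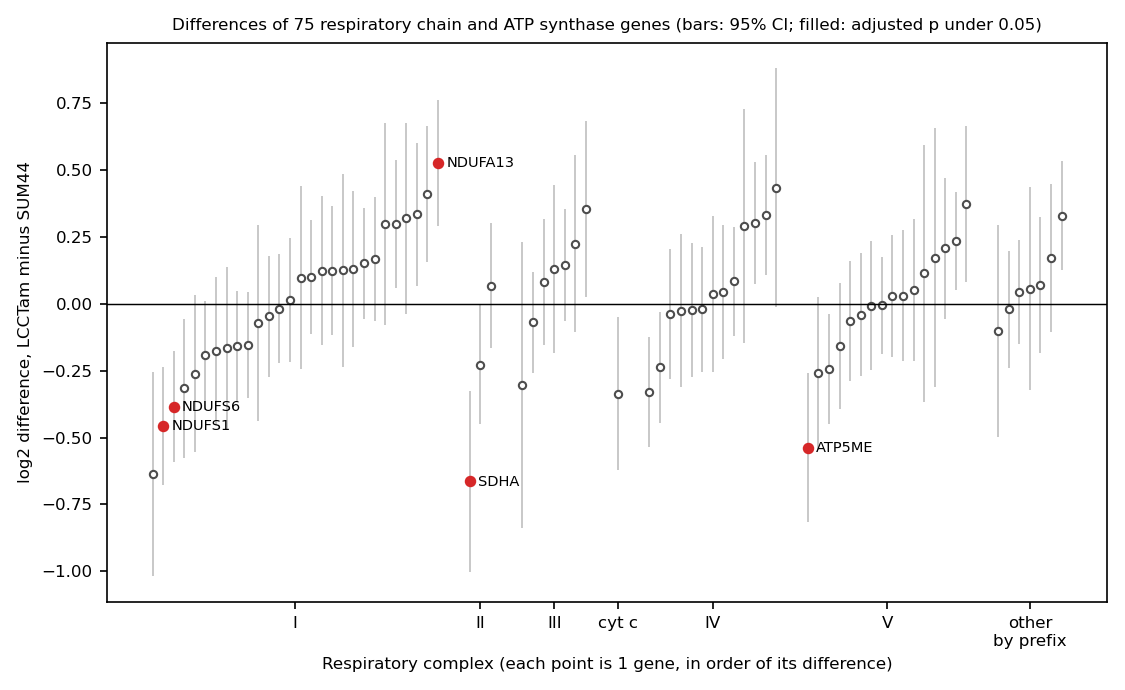
Log2 difference (LCCTam minus SUM44) of each of the 75 genes, sorted within its complex, with its 95% confidence interval from the limma fit; filled points passed at an adjusted p under 0.05. The filled points are SDHA at -0.66, ATP5ME at -0.54, NDUFS1 at -0.46 and NDUFS6 at -0.38 below the line of 0, and NDUFA13 at 0.53 above it.

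SDHA, the flavoprotein of complex II that oxidizes succinate to fumarate, had the most negative difference of the 75. Its log2 values were 10.15, 9.88 and 9.77 in SUM44 replicates 1 to 3 and 9.33, 9.44 and 9.05 in LCCTam replicates 1 to 3. All LCCTam arrays were below all SUM44 arrays, and the difference was -0.66 (SE 0.143), or 1.58-fold lower in LCCTam (limma adjusted p = 0.0364). The level came from 1 probe set whose suffix, _x_at, marks probes that can also bind other transcripts. NDUFS1, the largest iron-sulfur subunit in the matrix arm of complex I, had values of 9.06, 9.29 and 9.16 in SUM44 and 8.68, 8.77 and 8.68 in LCCTam. Here too the lines did not overlap, with a difference of -0.46 (SE 0.093), 1.37-fold lower (limma adjusted p = 0.0305). The NDUFS1 level came from 1 probe set, with the suffix _s_at, which also marks shared probes.

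NDUFS6, a zinc-binding accessory subunit of complex I, was at 11.09, 10.96 and 10.98 in SUM44 and at 10.71, 10.62 and 10.55 in LCCTam. Its LCCTam values all lay below its SUM44 values, by 0.38 on average (a difference of -0.38, SE 0.088, 1.30-fold lower, limma adjusted p = 0.0449). ATP5ME, subunit e of ATP synthase at the interface where the enzyme dimerizes, was at 10.82, 11.05 and 11.12 in SUM44 and at 10.61, 10.33 and 10.43 in LCCTam. It was lower in every LCCTam array, with a difference of -0.54 (SE 0.118), 1.45-fold lower (limma adjusted p = 0.0390). A further ATP5ME probe set gave -0.52 but did not pass in the separate fit of probe sets (limma adjusted p = 0.0894). Both ATP5ME probe sets carry the suffix _x_at.

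NDUFA13, a membrane-bound accessory subunit of complex I also known as GRIM-19, was the member that rose. Its values were 10.92, 10.96 and 11.06 in SUM44 and 11.65, 11.49 and 11.38 in LCCTam. All LCCTam arrays were above all SUM44 arrays, with a difference of 0.53 (SE 0.0998), 1.44-fold higher (limma adjusted p = 0.0236). The NDUFA13 level came from 1 probe set, with the suffix _s_at. None of these 5 calls held in every fit that left out 1 array. SDHA passed without SUM44 replicate 3 and without LCCTam replicate 3, NDUFS1 without SUM44 replicate 1 and without LCCTam replicate 3, NDUFS6 and NDUFA13 without LCCTam replicate 3, and ATP5ME without SUM44 replicate 1. In the other such fits they did not pass, and the differences ranged from -0.75 to -0.55 for SDHA, -0.51 to -0.40 for NDUFS1, -0.42 to -0.34 for NDUFS6, -0.62 to -0.47 for ATP5ME and 0.46 to 0.59 for NDUFA13 over the 6 fits.

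**Figure D2:**
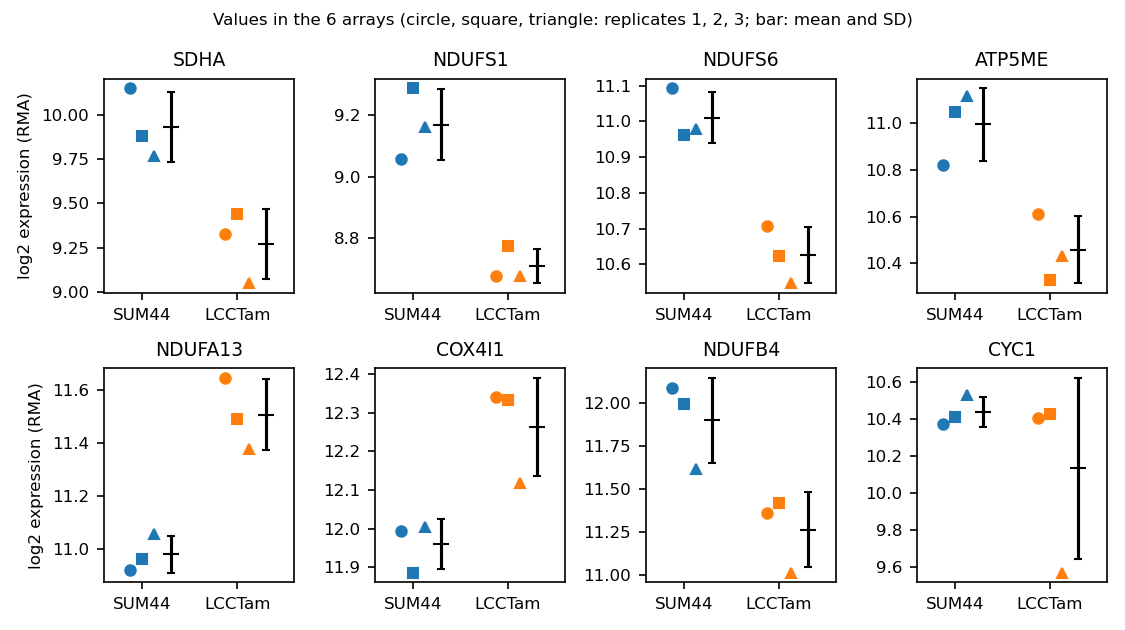
Log2 expression (RMA) of 8 genes in the 6 arrays; circles, squares and triangles are replicates 1, 2 and 3 of SUM44 (blue) and LCCTam (orange), with the mean and SD of 3 samples beside them, and the vertical scale differs between panels. SDHA, NDUFS1, NDUFS6, ATP5ME and NDUFB4 lie lower and NDUFA13 and COX4I1 higher on every LCCTam array, while CYC1 is low on LCCTam replicate 3 alone, at 9.57.

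The promoters of the 5 genes that passed are shown for the letters that known activators of oxidative phosphorylation genes bind, with that of NDUFB4, 1 of the members that held the estrogen-related receptor letters. Each sequence runs from 180 bases to 1 base before the transcription start (positions -180 to -1), on the gene's strand, from RefSeq on GRCh38.p14. The stretches are SDHA chr5:218140-218319 (+), NDUFS6 chr5:1801227-1801406 (+), NDUFS1 chr2:206159445-206159624 (-), NDUFA13 chr19:19516045-19516224 (+), ATP5ME chr4:674277-674456 (-) and NDUFB4 chr3:120596156-120596335 (+). Capitals mark letters that match, on either strand, 1 of 4 motifs: TNAAGGTCA (estrogen-related receptors), GCGCANGCG (NRF1), CCGGAAG (ETS factors such as GABP) or ATGGCGG (YY1). Only matches that end before the start are marked, so the NRF1 match of NDUFB4 at positions -8 to 1 is in lower case.
SDHA: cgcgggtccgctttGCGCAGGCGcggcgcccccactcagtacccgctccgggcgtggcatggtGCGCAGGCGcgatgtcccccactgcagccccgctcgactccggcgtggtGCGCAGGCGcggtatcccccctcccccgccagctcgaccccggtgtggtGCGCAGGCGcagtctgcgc
NDUFS6: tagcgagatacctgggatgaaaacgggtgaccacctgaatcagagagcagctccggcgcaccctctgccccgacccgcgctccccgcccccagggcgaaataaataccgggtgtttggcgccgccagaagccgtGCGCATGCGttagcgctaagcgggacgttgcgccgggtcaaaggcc
NDUFS1: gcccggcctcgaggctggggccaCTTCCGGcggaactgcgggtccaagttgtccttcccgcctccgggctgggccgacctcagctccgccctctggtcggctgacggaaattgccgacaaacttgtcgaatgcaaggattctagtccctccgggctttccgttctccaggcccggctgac
NDUFA13: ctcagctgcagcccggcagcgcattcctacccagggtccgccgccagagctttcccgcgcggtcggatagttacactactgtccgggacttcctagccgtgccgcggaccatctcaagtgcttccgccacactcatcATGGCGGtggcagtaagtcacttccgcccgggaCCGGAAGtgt
ATP5ME: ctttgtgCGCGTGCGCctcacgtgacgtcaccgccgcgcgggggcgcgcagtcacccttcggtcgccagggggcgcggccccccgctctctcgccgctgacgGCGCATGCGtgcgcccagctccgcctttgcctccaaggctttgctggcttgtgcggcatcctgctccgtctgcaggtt
NDUFB4: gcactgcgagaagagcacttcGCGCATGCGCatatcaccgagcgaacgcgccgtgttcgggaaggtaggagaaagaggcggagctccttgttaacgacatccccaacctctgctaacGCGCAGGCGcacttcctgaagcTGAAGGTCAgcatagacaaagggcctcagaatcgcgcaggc

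The SDHA stretch held 4 copies of GCGCAGGCG at steps of 49 bases, starting at positions -166, -117, -68 and -19. The 49-base stretches that start at successive copies were 57.1%, 75.5% and 44.9% identical. Of the other printed stretches of genes that passed, those of NDUFS6 and ATP5ME held the NRF1 letters as well. That of NDUFS1 held the ETS letters on its minus strand, and that of NDUFA13 the ETS and YY1 letters. After the start, and so not printed, NDUFS6, NDUFS1 and NDUFA13 held the YY1 letters and ATP5ME the ETS letters. Of the 75 members 65 had a promoter in the table, and the search covered 250 bases before to 50 after the start on both strands, where NRF1 matches on opposite strands can overlap. The NRF1 letters were in 20 of 65 member promoters, 30.8%, against 12.2% of 9563 measured genes and 8.05% of all 27305 promoters. The ETS letters were in 27.7% of member promoters against 15.2% and 10.7%, and the YY1 letters in 26.2% against 8.85% and 5.72%. Median GC content was 60.3% in member promoters, 64.0% in those of measured genes and 58.3% in all. The estrogen-related receptor letters were in 2 member promoters, 3.08%, against 0.502% of measured genes and 0.963% of all.

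NDUFB4 held the estrogen-related receptor letters 41 to 33 bases before the start and SDHD, a membrane anchor of complex II, held them on the minus strand at positions 12 to 20 after it. Both had negative differences, -0.64 and -0.23, and neither passed (limma adjusted p = 0.060 and 0.209). Members with and without the NRF1 letters had median differences of -0.01 and 0.04. For the ETS letters these medians were 0.04 and 0.03, and for YY1 0.10 and 0.03. A match describes letters in a window and was not tested as a binding site.

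In complex I, 2 of 28 genes fell, 1 rose and 25 did not pass, and the median difference was 0.06. The core subunits, which carry the electron path, had a median of 0.12 over 5 genes. NDUFS1 was the core subunit that passed. NDUFV1, which binds FMN and accepts electrons from NADH, was at 11.33, 11.27 and 11.49 in SUM44 and 11.19, 11.05 and 10.90 in LCCTam. The lines did not overlap, but the difference of -0.32 did not pass (limma adjusted p = 0.140). NDUFV2, its iron-sulfur partner, NDUFS3, at the base of the matrix arm, and NDUFS7, beside the quinone site, differed by 0.13, 0.12 and 0.13, with overlapping lines for each.

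The 23 accessory subunits of complex I, which surround the core, had a median of 0.02 and spanned -0.64 to 0.53. NDUFB4, in the membrane arm, was at 12.09, 11.99 and 11.62 in SUM44 and 11.36, 11.42 and 11.01 in LCCTam. Its lines did not overlap, but its spread within each line was wide and the difference of -0.64 (SE 0.162) did not pass (limma adjusted p = 0.060). Without SUM44 replicate 3 it passed. On the higher side NDUFB7, an intermembrane-space subunit, was at 8.45, 8.36 and 8.50 in SUM44 and 8.99, 8.88 and 8.67 in LCCTam. Its difference of 0.41 also missed the threshold (limma adjusted p = 0.065), and it passed without LCCTam replicate 3. NDUFB2, a further membrane-arm subunit, differed by 0.34 without overlap (limma adjusted p = 0.128).

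In complex II, 1 of 3 genes fell, and the median was -0.23. SDHD, a membrane anchor, was at 7.70, 7.86 and 7.92 in SUM44 and 7.68, 7.56 and 7.56 in LCCTam. All LCCTam values were below those of SUM44, the nearest pair by a small margin, with a difference of -0.23 (limma adjusted p = 0.209). A further SDHD probe set, with dim values, differed by 0.08 with overlapping lines. SDHC, the other anchor, differed by 0.07 with overlapping lines, and its 4 probe sets gave differences between -0.19 and 0.07. The anchors had smaller differences than SDHA, and the contrast between subunits was not tested. With the mean of all probe sets of a gene, the complex II median was -0.07.

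In complex III, 0 of 7 genes passed by limma and 1, UQCR11, was at an unadjusted p under 0.05. The median difference was 0.13, and without _x_at and _s_at probe sets it was -0.05. UQCR11, a small accessory subunit, was at 9.99, 10.24 and 10.33 in SUM44 and 10.75, 10.55 and 10.34 in LCCTam, a difference of 0.36 (limma adjusted p = 0.183). The lines did not overlap, but the lowest LCCTam and the highest SUM44 array were nearly equal. UQCR10 and UQCRQ, also small accessory subunits, differed by 0.23 and 0.15 with overlapping lines. UQCRC1 and UQCRC2, the core proteins, differed by 0.13 and 0.08, and UQCRB, near the quinone site, by -0.07. CYC1, the cytochrome c1 subunit that passes electrons on, was at 10.37, 10.41 and 10.53 in SUM44 and 10.40, 10.43 and 9.57 in LCCTam. That range of 0.857 within LCCTam was the widest of the 75 genes there, and the difference of -0.30 became -0.02 without LCCTam replicate 3. CYCS, the soluble carrier between complexes III and IV, was at 12.03, 12.24 and 12.34 in SUM44 and 11.89, 11.70 and 12.02 in LCCTam, with a difference of -0.34 that did not pass (limma adjusted p = 0.155).

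In complex IV, 0 of 13 genes passed by limma and 4 were at an unadjusted p under 0.05, 2 with positive and 2 with negative differences. COX4I1, the regulatory subunit made in most tissues, was at 11.992, 11.886 and 12.003 in SUM44 and 12.34, 12.33 and 12.12 in LCCTam. Its lines did not overlap, and the difference of 0.30 did not pass (limma adjusted p = 0.113). Its other probe sets gave 0.32 and 0.47, and the last, at 6.31, 6.24 and 6.44 in SUM44 and 6.82, 6.74 and 6.84 in LCCTam, passed in the fit of probe sets (limma adjusted p = 0.0230). COX4I1 thus had positive differences at 3 of 3 probe sets, of which 1 passed. COX6C, a small membrane subunit, was at 12.81, 12.69 and 12.64 in SUM44 and 12.40, 12.32 and 12.43 in LCCTam. It had no overlap and a difference of -0.33 (limma adjusted p = 0.068).

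Genes of the subunit 7A family had positive differences, and 0 of 3 passed by limma, with 1 at an unadjusted p under 0.05. COX7A2, the form made in most tissues, was at 11.85, 11.63 and 11.81 in SUM44 and 12.15, 12.12 and 12.02 in LCCTam, a difference of 0.33 without overlap (limma adjusted p = 0.084). COX7A1, the muscle form, was dim, at 4.80, 4.77 and 4.70 in SUM44 and 4.931, 4.995 and 5.652 in LCCTam, with a difference of 0.44 (limma adjusted p = 0.229) set mostly by LCCTam replicate 3. The 5 muscle markers had differences between 0.10 and 0.42, 1 of them passed, CKM, their mean log2 level was 5.05 to 5.07 in SUM44 and 5.18 to 5.43 in LCCTam, and their part in the COX7A1 value was not tested. COX7A2L, which takes part in supercomplexes, differed by 0.29 with overlap. The muscle form COX6A2 lay between 5.47 and 5.69 on all arrays, and COX6A1, its counterpart in most tissues, differed by -0.02. COX7B, a small membrane subunit, differed by -0.24 without overlap (limma adjusted p = 0.162), and COX8A, COX5A, COX7C and COX5B, a zinc-binding matrix subunit, each by under 0.05 in size. The 4 COX5B probe sets gave differences between -0.04 and 0.26. That at 0.26, the dimmest of them, was higher on every LCCTam array but did not pass in the fit of probe sets (limma adjusted p = 0.112).

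In ATP synthase, 1 of 16 genes passed, ATP5ME, and the median was 0.01. The 5 subunits of the catalytic head and central stalk, ATP5F1A to ATP5F1E, had differences between -0.06 and 0.17, 0 passed by limma, 0 were at an unadjusted p under 0.05, and the lines overlapped for all 5. In the peripheral stalk, which holds the head still, ATP5PD was at 11.33, 11.63 and 11.71 in SUM44 and 12.05, 11.86 and 11.87 in LCCTam. The difference was 0.37 without overlap (limma adjusted p = 0.121). ATP5PF, or F6, of the same stalk, was at 11.28, 11.47 and 11.34 in SUM44 and 11.13, 11.12 and 11.11 in LCCTam, lower on every LCCTam array, with a difference of -0.24 (limma adjusted p = 0.147).

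Subunits e and g sit side by side at the dimer interface of ATP synthase. ATP5MG, subunit g, was at 11.996, 12.001 and 12.059 in SUM44 and 12.29, 12.26 and 12.22 in LCCTam, above SUM44 on every LCCTam array. Its difference was 0.24 (limma adjusted p = 0.122), positive in sign where that of ATP5ME was negative, and all 4 of its probe sets had positive differences. The genes ATP5MC1, ATP5MC2 and ATP5MC3 encode the same mature subunit c of the rotor ring and differed by 0.11, 0.03 and -0.26, with 0 of 3 passing by limma and 0 at an unadjusted p under 0.05. ATP5IF1, the inhibitor of ATP hydrolysis, differed by 0.21 with overlap. None of the 7 genes that are not subunits passed by limma. ATP5MC2P1, the pseudogene, had the largest difference among them, 0.33 (limma adjusted p = 0.066), and was 1 of the 7 at an unadjusted p under 0.05.

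Of the 70 genes that did not pass, 54 had a 95% confidence interval that included 0, 9 lay wholly above it and 7 wholly below. For 48 of the 70 the interval lay within 0.5 of 0 either way, and the interval reached a median of 0.248 to either side of the difference. Several probe sets measured 21 of the genes, and 13 of these had differences of 1 sign at all probe sets and 8 of both signs, with a median gap of 0.132. Of the 108 probe sets 6 passed in the separate fit of all named probe sets, where 7.37% of all passed, and 55 of the 108 had suffixes that mark shared probes, _x_at or _s_at.

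LCCTam replicate 3 was the lowest LCCTam array for 60 of the 75 members, 80.0%, against 49.4% of all genes. The median member lay 0.09 and 0.07 above its SUM44 mean in LCCTam replicates 1 and 2 and 0.11 below it in replicate 3 (-0.11). For all genes the medians were 0.03, 0.02 and -0.05. The shift was present in the medians of complexes I, III, IV and V. In complex II, with 3 genes, the median was -0.14, -0.27 and -0.27 in LCCTam replicates 1, 2 and 3. There SDHC lay above its SUM44 mean in LCCTam replicates 1 and 2, and SDHA and SDHC were also lowest in LCCTam replicate 3. LCCTam replicate 3 is the array with the largest 3' to 5' differences, and the part of RNA quality in these values was not tested.

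**Figure D3:**
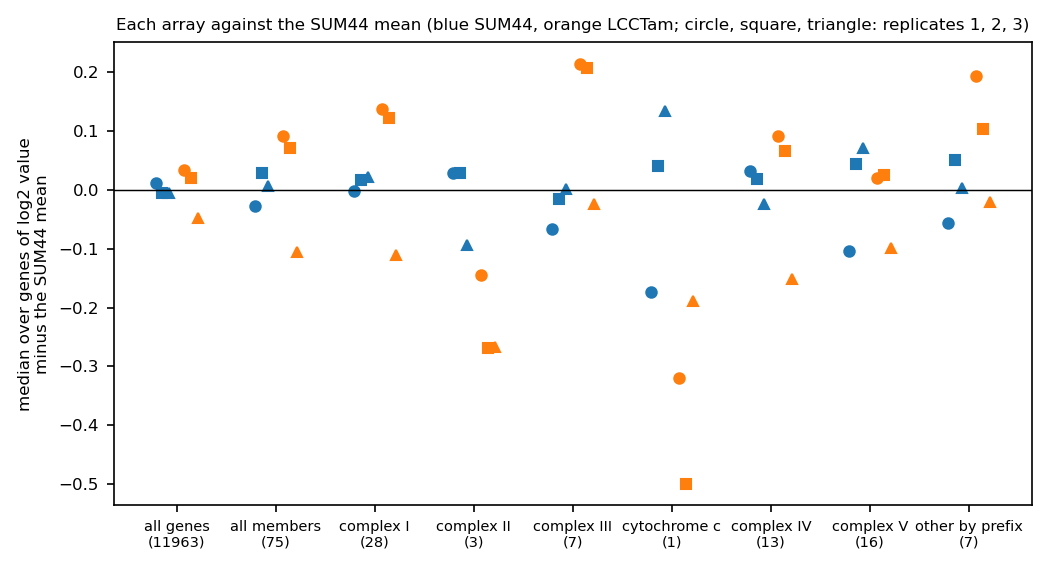
Median over genes of each array's log2 value minus the SUM44 mean, for all genes, all members and each complex (number of genes in parentheses); blue is SUM44, orange LCCTam, and circles, squares and triangles are replicates 1, 2 and 3. For all members LCCTam replicates 1 and 2 sit at 0.09 and 0.07 and LCCTam replicate 3 at -0.11.

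Without LCCTam replicate 3, 4 members rose, ATP5MC2P1, COX4I1, NDUFA13 and NDUFB7, where 5.29% of all genes did, and 4 fell, COX6C, NDUFS1, NDUFS6 and SDHA, where 7.47% did. The median difference of the members was then 0.10. Without SUM44 replicate 2, LCCTam replicate 1 or LCCTam replicate 2, 0 members passed by limma, with 13, 14 and 15 at an unadjusted p under 0.05. In those fits 259, 353 and 401 of all genes passed, against 948 with all arrays. Without SUM44 replicate 1, ATP5ME and NDUFS1 fell, and without SUM44 replicate 3, NDUFB4 and SDHA fell, with 0 rising in either. Medians near 0 changed sign without 1 array: that of all members was -0.003 without LCCTam replicate 2, that of complex I -0.012 without LCCTam replicate 1, that of complex IV -0.019 and -0.025 without LCCTam replicates 1 and 2, and that of complex V between -0.032 and -0.006 without SUM44 replicate 1 or 3 or LCCTam replicate 1 or 2.

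The positions of the members were compared with the genes around them, taking names and order from the RefSeq table. All 9 members on chromosome 19 had positive differences, with a median of 0.32, while the other 801 measured genes there had a median of 0.09. The 9 were NDUFA13, NDUFB7, UQCR11, NDUFA7, NDUFS7, NDUFA3, COX6B1, COX7A1 and ATP5F1D. Only NDUFA13 of these passed, and the lines overlapped for NDUFA7, NDUFS7, NDUFA3, COX6B1 and ATP5F1D. The COX6B1 difference of 0.04 fell as low as -0.03 when 1 array was left out. The 4 members on chromosome 16, COX4I1 among them, were also all positive, with a median of 0.13, the same as that of the 520 other genes there. On chromosome 1 all 4 were positive as well, with a median of 0.14 beside 0.02 for the 1196 other genes, and both on chromosome 17 were positive, with 0.24 beside 0.075. On chromosome 4, ATP5ME and NDUFC1 were both negative, and 19.6% of the 450 other genes fell, with a median of -0.10. COX6C, CYC1 and UQCRB, on chromosome 8, were all negative, and 11.6% of the 431 other genes fell, with a median of -0.04. Both members on chromosome 21, ATP5PF and ATP5PO, were negative, with a median of -0.20 beside -0.03, and both on chromosome 20, with -0.013 beside 0.005. Members of both signs lay on the other chromosomes that held at least 2 of them.

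SDHA and NDUFS6 lie near each other on chromosome 5 with 12 measured genes between them. Of those 12, 2 fell, PDCD6 by -0.46 and SLC12A7 by -0.48, 0 rose, and 6 had positive and 6 negative differences. Neighbours of a gene were the 5 nearest measured genes on each side, with members left out. Those of NDUFA13 had a median difference of 0.33. SDHA, the first measured gene on its chromosome, had none on 1 side and was left out. Over the other 74 members, a gene's difference and the median of its neighbours had a Pearson's r of 0.343 and a Spearman's rho of 0.371. Over all 11713 genes with 5 neighbours on each side they were 0.242 and 0.288. Neighbouring genes share arrays and genes are not independent replicates, so these are descriptions.

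**Figure D4:**
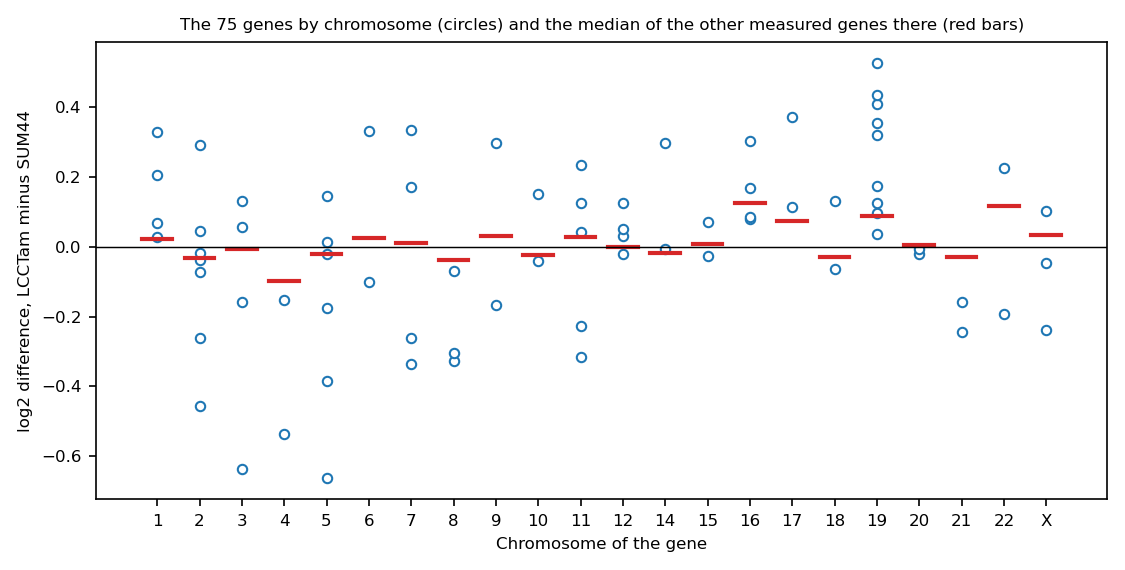
Log2 difference (LCCTam minus SUM44) of each of the 75 genes (circles) by its chromosome, with the median of the other measured genes of that chromosome as a red bar. The 9 circles on chromosome 19 all lie above 0 with a median of 0.32, beside a bar at 0.09.

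Genes that regulate or serve the chain were described by lists. Of 15 regulators of mitochondrial biogenesis 1 passed, ESRRG, at 7.10, 6.94 and 7.01 in SUM44 and 8.60, 9.19 and 9.55 in LCCTam. It was higher on every LCCTam array, with a difference of 2.10 (limma adjusted p = 0.00333), while the median of the 75 members was 0.04. ESRRA, its relative, differed by -0.02, and PPARGC1A, which encodes the coactivator PGC-1alpha, was dim, at 5.13, 5.19 and 4.76 in SUM44 and 4.46, 4.36 and 4.59 in LCCTam, with a difference of -0.56 (limma adjusted p = 0.051). NRF1 differed by -0.31, TFAM, a factor of mitochondrial DNA transcription, by -0.38 and GABPA by -0.24, and none of them passed. The list's median difference was -0.03, and 0.07 without LCCTam replicate 3, when 1 of its genes rose and 2 fell.

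Of 28 assembly factors 2 fell and 0 rose, with a median of -0.12, and 5 of the 28 are also among the 75. TMEM126B, which helps build the membrane arm of complex I, was at 9.69, 9.69 and 9.99 in SUM44 and 9.10, 8.89 and 8.90 in LCCTam. All LCCTam arrays were lower, and the difference was -0.83 (limma adjusted p = 0.009). LRPPRC, which stabilizes mitochondrial messenger RNAs, was at 9.71, 9.86 and 9.96 in SUM44 and 9.06, 8.90 and 9.35 in LCCTam, a difference of -0.74 (limma adjusted p = 0.021). Of 51 mitochondrial ribosome genes 2 fell, MRPL42 by -0.49 and MRPS35 by -0.47, while the largest difference, -0.65 for MRPS30, did not pass (limma adjusted p = 0.0855), and the list median was 0.06. Of 22 import and cristae genes 1 fell, TOMM70, an import receptor, by -0.62, CHCHD3, a cristae protein, differed by -0.36 without passing (limma adjusted p = 0.069), and the median was -0.07. Without LCCTam replicate 3, 1 assembly factor rose and 3 fell (median -0.02), 4 ribosome genes rose and 2 fell (median 0.12), and the import and cristae median was 0.06.

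Of 17 genes of the TCA cycle and pyruvate dehydrogenase 1 fell, SUCLG2, a subunit of succinyl-CoA ligase in the step before SDHA. It was at 8.92, 9.07 and 8.93 in SUM44 and 8.40, 8.31 and 8.32 in LCCTam, without overlap, a difference of -0.63 (limma adjusted p = 0.008). SUCLA2, of the other form of that enzyme, differed by -0.50 without passing (limma adjusted p = 0.060), and the list median was -0.19. Without LCCTam replicate 3 that median was -0.07, with 1 gene rising and 3 falling. The list of other electron donors to ubiquinone and superoxide defence had 3 of 14 genes that rose and 1 that fell. ETFB, a subunit of the flavoprotein that carries electrons from fatty acid oxidation, was at 7.12, 7.52 and 7.72 in SUM44 and 9.06, 8.80 and 8.89 in LCCTam. Every LCCTam array was above every SUM44 array, with a difference of 1.46 (limma adjusted p = 0.004). Its partner ETFA differed by -0.09 with overlap, and ETFDH, which passes the electrons to ubiquinone, by -0.19.

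PRODH, which passes electrons from proline, was at 8.95, 8.54 and 8.33 in SUM44 and 10.09, 9.86 and 9.60 in LCCTam, a difference of 1.25 (limma adjusted p = 0.011). COQ7, an enzyme of ubiquinone synthesis, rose by 0.49 (limma adjusted p = 0.047). GPD2, the mitochondrial glycerol-3-phosphate dehydrogenase, was at 6.73, 6.83 and 6.60 in SUM44 and 5.92, 5.99 and 5.94 in LCCTam, and fell with a difference of -0.77 (limma adjusted p = 0.005). The differences of ETFB, PRODH and GPD2 were thus larger in size than that of any of the 75 chain and synthase genes, of which SDHA had the largest. Of 12 carriers and porins 0 passed by limma, with 33.3% at an unadjusted p under 0.05 with SLC25A1, the citrate carrier, at 0.59 and SLC25A20, the acylcarnitine carrier, at 0.56, and 3 rose without LCCTam replicate 3. Of 22 glycolysis genes 1 rose, SLC2A1, the glucose transporter GLUT1, by 0.89 (limma adjusted p = 0.043), and PFKP differed by -0.99 without passing (limma adjusted p = 0.074).

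**Figure D5:**
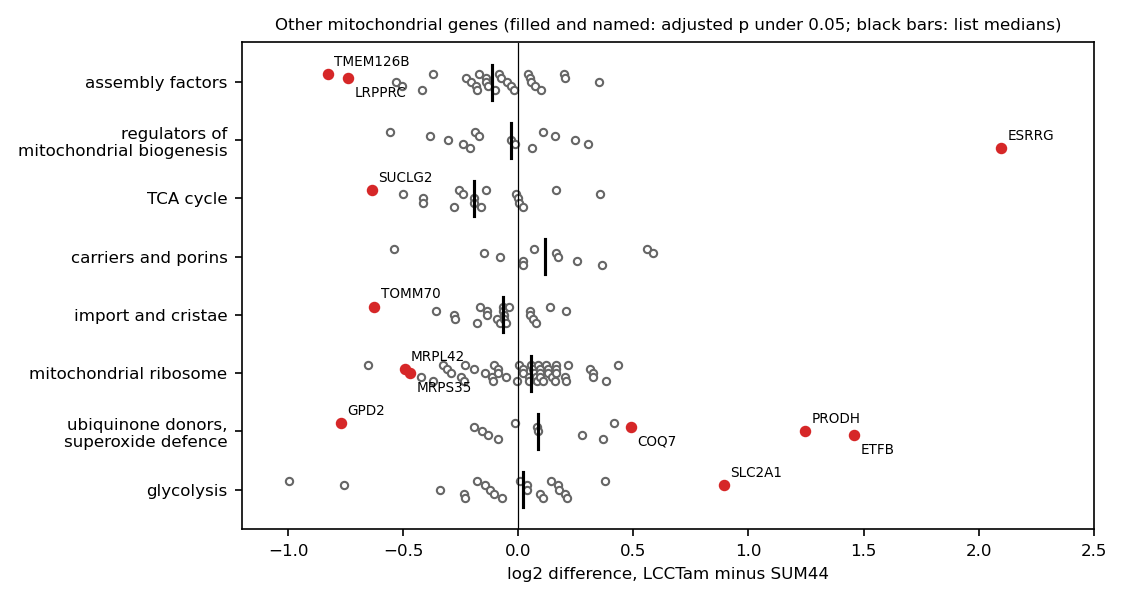
Log2 difference (LCCTam minus SUM44) of the genes of 8 related lists, 1 point a gene; filled and named points passed at a limma adjusted p under 0.05 and black bars are list medians. ESRRG at 2.10, ETFB at 1.46 and PRODH at 1.25 lie far to the right, while the list medians run from -0.19 to 0.12.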

How the data were processed

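Total RNA of 3 SUM44 and 3 LCCTam samples was labelled and hybridized by the Affymetrix one-cycle procedure, per the labels. The authors deposited log2 values made with RMA (Bioconductor), per the design text and the submitters' processing notes. The RMA version is not given in the sources used here, nor is it known if 1 run covered all arrays. RMA makes the arrays alike, so a change common to most genes cannot be seen, and it can shrink differences of dim genes. Precision is limited by the number of arrays.

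Gene symbols came from the platform annotation and were updated through Entrez identifiers. Control probe sets (68) and probe sets with several symbols were left out, the latter including 9 whose symbols met the rule. The probe set with the highest mean stood for a gene. Lines were compared with limma 3.58.1 under R 4.3.3 (lmFit, then eBayes, without an intensity filter), with Benjamini-Hochberg adjustment over 11963 genes or, separately, 19065 probe sets. The fit was also run on simulated data with independent noise. There recovery was required only at the largest simulated difference, which exceeded that of any member. Alternatives changed the probe sets, normalization, filter, array weights and intensity trend, and left out each array.

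The members and lists were chosen with earlier results of these data known. Genes named were members that passed or had a passing probe set, the 3 most positive and 3 most negative per complex, complex II, CYC1, CYCS, complex I core subunits, isoforms, and, of each related list, those that passed and the largest 2. Other names, and the chromosome, neighbour and promoter descriptions, were chosen after the values were seen. Promoters came from a RefSeq table on GRCh38.p14.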

Additional observations from a re-analysis of the deposited data

How the results depend on the processing

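For the 45 members that the naming rule gave, there were 563 values under 13 alternatives. Of these, 482 kept their direction and side of the threshold, and 30 lost and 30 gained the call with their direction kept. A further 21 values changed sign without a call in either fit, and 0 called values changed sign. Array weights, which gave LCCTam replicate 1 a weight of 4.018 and LCCTam replicate 3 one of 0.201, raised the counts to 3844 genes, to 17 members higher and 10 lower, and to 37 member probe sets. With these weights 36.0% of the members passed, beside 32.1% of all genes. Without _x_at and _s_at probe sets 598 genes passed, and the complex III median was -0.051. There 51 members were left to test, of which 1 was higher (COX4I1) and 1 lower (NDUFS6), or 3.92% beside 7.15% of all genes tested. SDHA, NDUFS1, ATP5ME and NDUFA13 have only probe sets with these suffixes, so they could not be tested in that setting. The mean of all probe sets gave 3 members higher and a complex II median of -0.073, and quantile normalization gave 4 members higher and a complex II median of -0.103. In either direction 8.0% of the members passed with the mean, beside 8.35% of all genes. With quantile normalization these shares were 9.33% and 9.2%. Leaving out 1 array gave 259 (SUM44 replicate 2) to 1527 genes (LCCTam replicate 3), 0 to 4 members higher, 0 to 4 lower, 0 to 10 member probe sets and a complex III median of 0.05 to 0.188. In those 2 fits 0.0% and 10.7% of the members passed, beside 2.17% and 12.8% of all genes. The causes were not tested. For the related lists the only array left out was LCCTam replicate 3. The member median stayed between 0.029 and 0.078 under the processing alternatives and between -0.003 and 0.1 without 1 array. No paired analysis was possible because the lines share no passage and their replicate numbers only name samples.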
